A study of Mus musculus with 12 samples.

Results

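The 10 genes described here are the core of the circadian clock: Clock, Arntl (also called Bmal1), Per1, Per2, Per3, Cry1, Cry2, Nr1d1, Nr1d2 and Dbp. Every probe set of the array that was annotated to exactly 1 of these symbols was taken, which gave 23 probe sets among 45101, for 10 of 18194 genes named on the array. Each gene had between 1 and 6 of them, with 6 for Per3 and 4 for Clock. Of the 23, 19 had a log2 value above 4 in at least 3 of the 12 arrays and were tested, and these covered all 10 genes. The 4 others lay below that level in every array: 1 probe set each of Arntl (3.32 to 3.91), Per2 (2.96 to 3.77), Per3 (2.94 to 3.26) and Nr1d2 (2.84 to 3.58). Values are log2 intensities, and the probe set with the highest mean of a gene is used for it unless another is named.

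The samples were cultured cerebellar granule cells from lethargic mice on a 129/SvJ background, prepared at postnatal day 7. The shared growth protocol also names BALB/c mice, but every sample is labelled lethargic and 129/SvJ, and was taken as such. In lethargic mice Cacnb4, which encodes the calcium channel subunit β4, is mutated, and all 4 groups share this defect, the controls included. Cells received a lentiviral construct right after plating, for 12 hours, that carried the splice variant β4a, β4b or β4e or, in the control, eGFP. Ara-C, which blocks dividing cells, was added to all cultures against non-neuronal cells, and RNA was taken after 9 days in vitro. There were 4 groups of 3 arrays, and the sample titles give each group the replicate numbers 1, 2 and 3. The labels do not say what a number marks, whether replicates came from separate animals or cultures, or at what time of day cells were lysed. The p-values therefore measure the spread between these samples, which may be technical.

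In the circadian clock, CLOCK and BMAL1 bind E-boxes in DNA and switch on the Per and Cry genes, whose proteins return to the nucleus and inhibit CLOCK and BMAL1. CLOCK and BMAL1 also drive Nr1d1 and Nr1d2, the genes of the REV-ERB receptors that repress Arntl, and Dbp, an output factor that binds D-boxes. Most cells of the body, neurons included, hold such a clock, and Per1 and Per2 can in addition be induced quickly by signals such as depolarisation.

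The cultures carried the transcripts that their label names. All 9 granule cell markers on the array were above the test level, and their summed level, as log2 of the sum of the linear values, was 16.37 to 16.57 in the 12 arrays. Pcp2 of Purkinje cells, Itgam and P2ry12 of microglia, and Pdgfrb, Pecam1, Cldn5 and Cdh5 of vessels were below 4 in every array, while all 10 astrocyte markers were above the test level (summed level 13.65 to 15.10), as were all 9 oligodendrocyte markers on the array (14.20 to 14.89). Above the test level were also 5 of 8 microglial markers, 6 of 8 markers of other cerebellar neurons and 5 of 9 on the fibroblast and vascular list. The summed level was 9.37 to 10.66 for the 8 microglial markers and 12.53 to 13.94 for the 8 markers of other cerebellar neurons. The Actb control, a measure of RNA integrity, read 0.82 to 1.09 higher at its 3′ than at its 5′ probe set. Cacnb4 itself was bright in all groups on 3 probe sets (9.41 to 12.24), and whether these lie in the delivered sequence is not known, so they check no label. In such bulk samples, fewer cells of a type and less RNA per cell cannot be told apart.

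RefSeq promoter windows on GRCm38.p6, of 250 bases before and 50 after an annotated start, were matched for 9 of the 10 genes, all but Per2, with 13 windows in all. They were searched on both strands for 4 motifs of clock factors: the E-box CACGTG and its variant CACGTT, the D-box TTATGNAA, and NTAGGTCA, the element of ROR and REV-ERB receptors. The E-box was in 7.15% of all 32851 windows in the table, the variant in 4.68%, the D-box in 3.38% and the receptor element in 2.59%. No match overlapped another in the windows of the 10 genes. The windows below are those of the genes that the results turn on and that held a match, read 5′ to 3′ on the strand of the gene, with the matches in capitals. For Per1, 1 window (chr11:69098699-69098998, plus strand) held an E-box and a D-box and another held no match, and Per3 (chr4:151044616-151044915, minus strand) held 2 D-boxes. Cry1 (chr10:85185005-85185304, minus strand) held a variant E-box, matched on the opposite strand, and an E-box, and 1 of the windows of Arntl (chr7:113207261-113207560, plus strand) held the receptor element.
Per1: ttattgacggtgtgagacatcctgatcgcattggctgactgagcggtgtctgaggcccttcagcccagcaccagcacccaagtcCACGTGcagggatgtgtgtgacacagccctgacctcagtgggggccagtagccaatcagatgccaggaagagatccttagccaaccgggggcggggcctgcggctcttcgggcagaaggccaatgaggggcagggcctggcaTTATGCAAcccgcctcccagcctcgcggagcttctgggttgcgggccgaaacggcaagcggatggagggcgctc
Per3: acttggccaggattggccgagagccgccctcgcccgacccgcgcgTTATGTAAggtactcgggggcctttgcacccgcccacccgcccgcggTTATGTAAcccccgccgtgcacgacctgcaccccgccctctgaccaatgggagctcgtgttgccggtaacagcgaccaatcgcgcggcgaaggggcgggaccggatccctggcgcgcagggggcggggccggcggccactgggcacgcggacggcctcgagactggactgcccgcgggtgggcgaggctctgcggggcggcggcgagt
Cry1: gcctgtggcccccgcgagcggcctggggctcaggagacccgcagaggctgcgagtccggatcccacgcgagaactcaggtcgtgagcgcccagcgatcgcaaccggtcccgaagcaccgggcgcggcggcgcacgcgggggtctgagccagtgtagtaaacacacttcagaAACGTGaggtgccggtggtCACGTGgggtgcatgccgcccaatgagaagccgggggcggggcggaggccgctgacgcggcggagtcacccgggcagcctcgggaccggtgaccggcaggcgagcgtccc
Arntl: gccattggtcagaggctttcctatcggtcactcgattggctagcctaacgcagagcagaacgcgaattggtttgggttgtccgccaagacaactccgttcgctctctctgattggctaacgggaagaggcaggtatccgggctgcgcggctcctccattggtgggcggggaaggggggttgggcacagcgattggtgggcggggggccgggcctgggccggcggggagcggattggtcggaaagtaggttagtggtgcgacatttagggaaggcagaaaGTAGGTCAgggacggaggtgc

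Cry2 and Nr1d1 each held a variant E-box as well, so that 6 of 13 windows held at least 1 of the motifs, against 16.8% of all windows. No window of Clock, Dbp or Nr1d2 held a match. A match is a description of these letters and does not show that a factor bound there.

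The variants were compared with eGFP to find out whether returning a form of β4 to the neurons moved the clock genes. None of them passed the test. With limma and Benjamini-Hochberg adjustment over 23044 probe sets, 0 of 19 clock probe sets passed for β4a, β4b or β4e against eGFP, for the mean of the variants or in the F test over the 4 groups, where 0.0% of all probe sets passed in each of these comparisons. At an unadjusted limma p under 0.05 there was 1 for β4a, 1 for β4b, 0 for β4e, 1 for the mean of the variants and 1 in the F test, where the share of all probe sets was 1.58%, 2.63%, 0.36%, 2.03% and 0.759%. The arrays deviated together by replicate number, and with the number as a block 0 of 19 passed again, against a background of 0.013% for β4a, 0.013% for β4b, 0.0% for β4e and 0.0217% for the mean. The counts at an unadjusted limma p under 0.05 were then 5, 6, 2 and 5 of 19, and 5 in the F test, but with the block 15.3%, 19.3%, 5.54%, 17.5% and 11.7% of all probe sets lay there too.

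**Figure D1:**
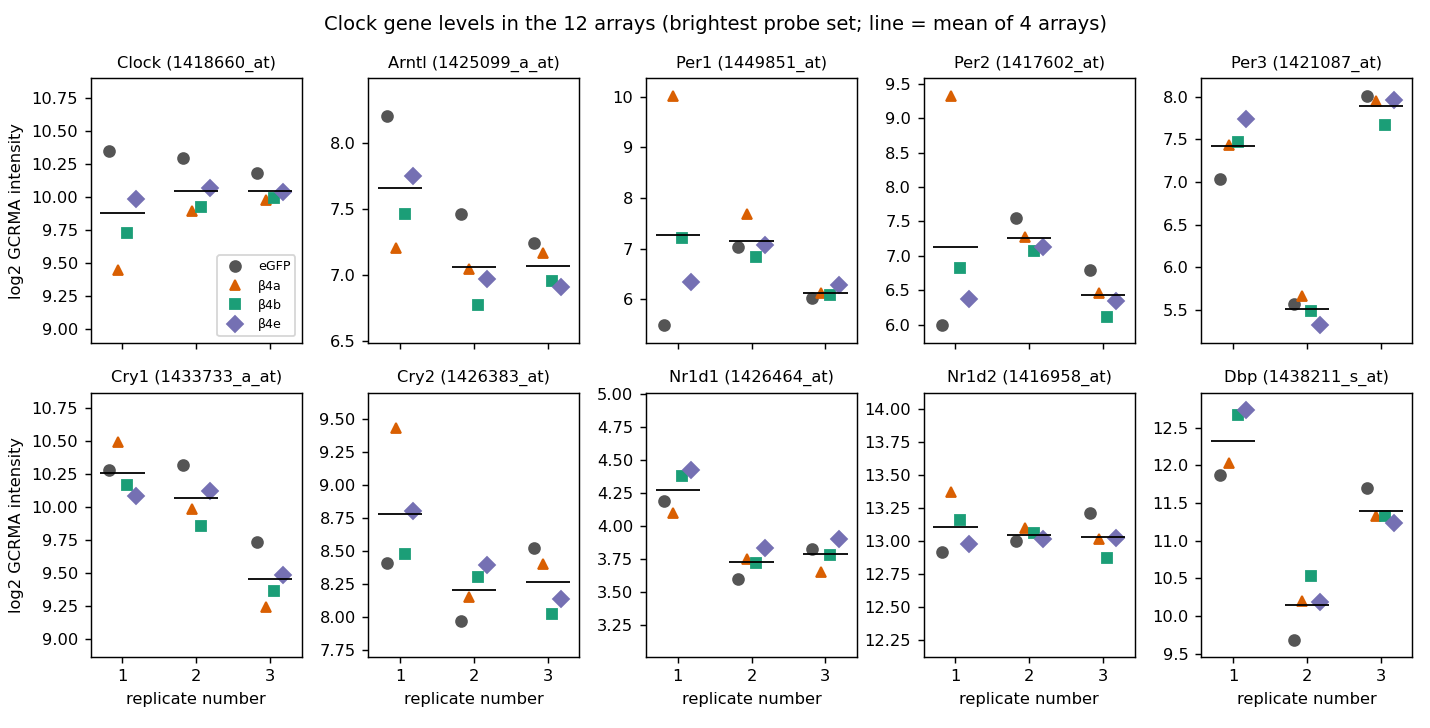
Log2 GCRMA intensity (vertical axis) of the brightest probe set of each of the 10 clock genes against the replicate number (horizontal axis). Circles are eGFP, triangles β4a, squares β4b and diamonds β4e, 1 array each, and a line is the mean of the 4 arrays of a number. Per1 and Per2 have 1 array far above the rest, β4a of replicate 1 at 10.02 and 9.33, and Per3 and Dbp separate by replicate number.

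Clock, which encodes the DNA-binding partner of BMAL1, was highest with eGFP. It was at 10.35, 10.30 and 10.18 in eGFP replicates 1, 2 and 3, at 9.45, 9.90 and 9.98 with β4a, at 9.73, 9.93 and 9.99 with β4b, and at 9.99, 10.07 and 10.04 with β4e. The eGFP arrays did not overlap with those of any variant, while the variants overlapped with each other. The log2 difference from eGFP was -0.50 for β4a (SE 0.15, 1.41-fold lower), -0.39 for β4b and -0.24 for β4e. The limma adjusted p was 0.9999 for each of these, and with the replicate block 0.182, 0.155 and 0.894.

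Arntl, which encodes BMAL1, stood at 8.20, 7.46 and 7.24 with eGFP, at 7.21, 7.04 and 7.16 with β4a, at 7.46, 6.77 and 6.95 with β4b, and at 7.75, 6.97 and 6.91 with β4e. Within each replicate number the eGFP array was the highest of the 4, but across numbers the groups overlapped. The log2 difference was -0.50 for β4a (SE 0.16 with the block, 1.41-fold lower), -0.58 for β4b and -0.43 for β4e, with a blocked limma adjusted p of 0.234, 0.125 and 0.878. In the fit without the block these differences were -0.21, -0.29 and -0.14 when eGFP replicate 1 was left out. The variants then still held replicate 1, where Arntl was higher than in replicates 2 and 3. Within replicates 2 and 3 the differences were -0.42 and -0.08 for β4a, -0.69 and -0.29 for β4b, and -0.50 and -0.33 for β4e.

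By these brightest probe sets, Clock and Arntl were below their eGFP partner in all 9 differences within a replicate number. The Clock probe sets 1418659_at and 1435775_at did not share this: the first was above eGFP in 3 of 9 and differed by 0.04, -0.09 and -0.12 for β4a, β4b and β4e, and the second was above in 1 of 9 and differed by -0.23, -0.32 and -0.05. Of the 19 clock probe sets tested, 4 were below eGFP in 9 of 9: the brightest of Clock and of Arntl, Clock 1439314_at and Per3 1442243_at. No clock probe set was above in 9 of 9. Of all probe sets tested, 4.52% were below in 9 of 9 and 4.86% above, and the 3 differences of a number share 1 eGFP array, so that they are not independent. The differences of Clock 1439314_at averaged -0.81 for β4a, -0.60 for β4b and -0.81 for β4e, and those of Per3 1442243_at were -0.71, -0.56 and -0.18. Beside these, all 10 astrocyte markers had a group mean above that of eGFP with each variant, with medians of 0.40 for β4a, 0.61 for β4b and 0.33 for β4e. With limma 0 of 10 passed, with 0, 2 and 0 at an unadjusted p under 0.05. The astrocyte medians in replicates 1, 2 and 3 were -0.24, 0.35 and 0.87 for β4a, -0.32, 0.75 and 1.33 for β4b, and -0.08, 0.65 and 0.38 for β4e. Their part in the levels of Clock and Arntl was not tested.

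**Figure D2:**
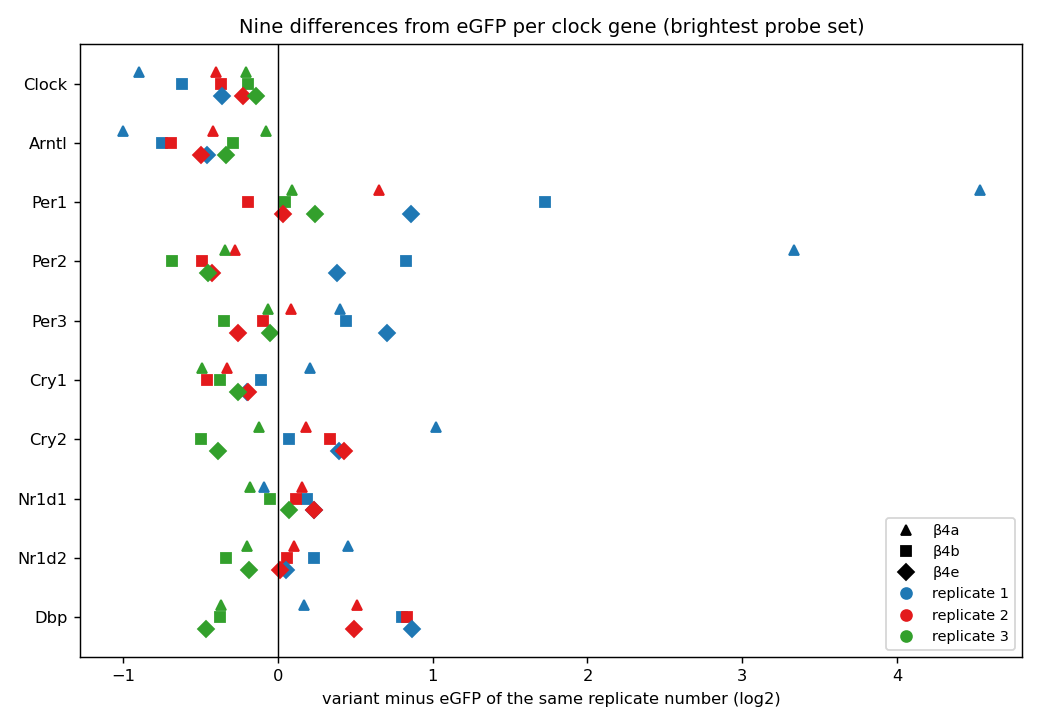
Log2 difference between a variant and the eGFP array of the same replicate number (horizontal axis) for the brightest probe set of each clock gene (vertical axis). Triangles are β4a, squares β4b and diamonds β4e, and colours mark replicates 1 (blue), 2 (red) and 3 (green). All 9 points lie below 0 for Clock and Arntl, and the β4a points of replicate 1 reach 4.53 for Per1 and 3.34 for Per2.

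Per1 and Per2, the repressors that answer quickly to outside signals, were far above their level in all other arrays in β4a replicate 1. Per1 stood at 10.02 there, against 5.48 with eGFP, 7.21 with β4b and 6.35 with β4e in the same number. In replicate 2 it stood at 7.03 with eGFP, 7.68 under β4a, 6.84 under β4b and 7.07 under β4e, and in replicate 3 at 6.03, 6.12, 6.08 and 6.27. The β4a array was thus 4.53 log2 units above its eGFP partner in replicate 1, 0.65 in replicate 2 and 0.09 in replicate 3. The group means were 6.18 ± 0.78 with eGFP, 6.56 ± 0.44 with β4e, 6.71 ± 0.58 with β4b and 7.94 ± 1.96 with β4a (SD, n = 3 each), and no neighbours in this order differ beyond their spread. The fitted difference for β4a was 1.76, with a limma adjusted p of 0.9999, or 0.287 with the block. In the fit without the block it fell to 0.72 when β4a replicate 1 was left out. That fit still held eGFP replicate 1, the lowest array for Per1, while the pairs of replicates 2 and 3 differed by 0.65 and 0.09.

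Per2 had the same outlying array, was above eGFP with all variants in replicate 1 and below it with all of them in replicates 2 and 3. It stood at 5.99 with eGFP, 9.33 under β4a, 6.82 under β4b and 6.38 under β4e in replicate 1. In replicate 2 it stood at 7.56, 7.28, 7.07 and 7.13 and in replicate 3 at 6.80, 6.46, 6.12 and 6.35 in the same order, with eGFP highest both times. The log2 difference of β4a was 3.34 in replicate 1, -0.28 in replicate 2 and -0.34 in replicate 3. In the fit without the block, the value of 0.91 became 0.09 when β4a replicate 1 was left out. That fit still held eGFP replicate 1, the lowest of the 12 arrays for Per2, so 0.09 is not a paired difference. A second, dimmer probe set, 1457350_at, stood at 5.40 in β4a replicate 1 and between 4.08 and 4.80 in the 11 other arrays.

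A list of 16 genes that neurons induce with activity, such as immediate early transcription factors, was set beside Per1 and Per2. In replicate 1 all 16 were above eGFP with β4a (median 4.00) and with β4b (2.90), and 6 of 16 with β4e (-0.11). In replicate 2 the medians were 2.40, 0.96 and 0.43, and in replicate 3 they were -0.18, -0.39 and -0.28. As differences from eGFP, Per1 was highest where the list median was highest. In β4a replicate 2, however, the list median was 2.40 while Per1 differed by 0.65 and Per2 by -0.28. These differences rest on eGFP arrays that differed themselves. As log2 of the summed linear values, the list stood at 12.17, 14.31 and 13.82 in eGFP replicates 1, 2 and 3. With β4a it stood at 16.31, 16.19 and 13.27, while Per1 stood at 10.02, 7.68 and 6.12. With limma 0 of 16 passed for any variant against eGFP, with 4 at an unadjusted p under 0.05 for β4a (1.58% of all probe sets), 0 for β4b and 0 for β4e. With the block 0 of 16 passed again, with 9, 0 and 0 at an unadjusted p under 0.05 (15.3% of all probe sets for β4a). Whether the list had a part in the levels of Per1 and Per2 was not tested. Among other clock genes, Bhlhe40, a repressor that competes for E-boxes, differed from eGFP by 1.86 in β4a replicate 1 and by 0.32 and 0.37 in replicates 2 and 3. Nfil3, a repressor that binds D-boxes, differed by 1.71, 0.91 and -0.26. Both were singled out after their values were seen. A list of glucocorticoid-induced genes, 8 on the array, had medians of -0.01, 0.15 and -0.02 for β4a in replicates 1, 2 and 3.

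**Figure D3:**
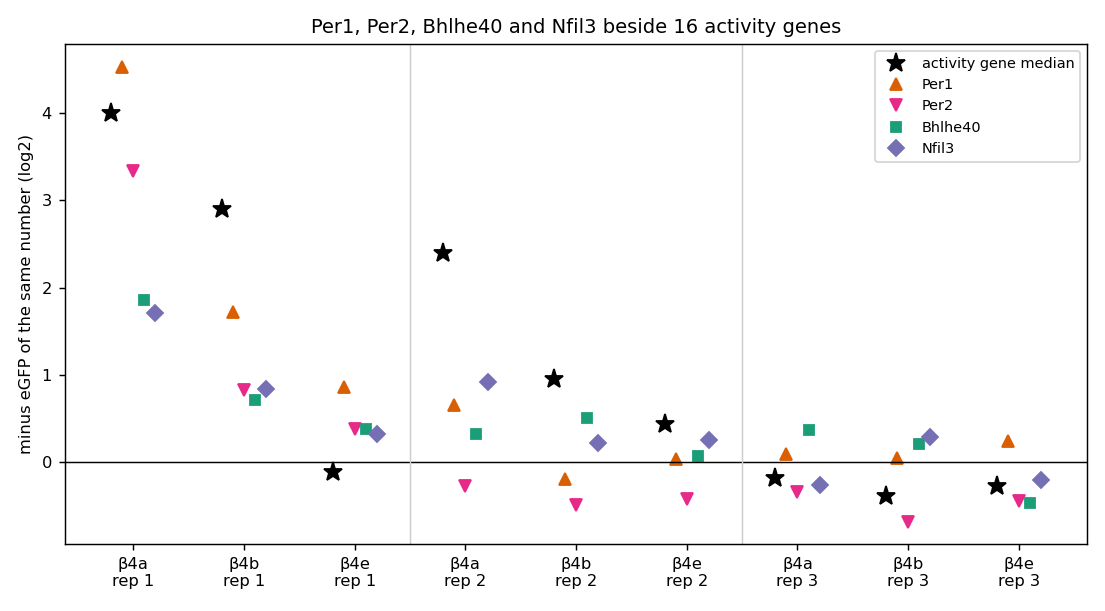
Log2 difference from the eGFP array of the same replicate number (vertical axis) in each of the 9 arrays with a variant (horizontal axis). The star is the median of 16 activity-induced genes, and the other symbols are Per1, Per2, Bhlhe40 and Nfil3. In β4a replicate 1 the list median is 4.00, Per1 4.53 and Per2 3.34, and in replicate 3 the list median is below 0 with all variants.

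Per3, Cry1 and Cry2, the other repressors, did not pass for any variant. Per3, the third Period gene, stood at 6.87 ± 1.23 with eGFP, 7.02 ± 1.20 under β4a, 6.87 ± 1.21 under β4b and 7.01 ± 1.47 under β4e (SD, n = 3 each), and within each group it was lowest in replicate 2. Cry1, which encodes a cryptochrome that blocks CLOCK and BMAL1, stood at 10.28, 10.32 and 9.74 with eGFP, at 10.49, 9.99 and 9.24 with β4a, at 10.17, 9.86 and 9.36 with β4b, and at 10.08, 10.12 and 9.48 with β4e. It was below its eGFP partner in 8 of 9 differences, with β4a replicate 1 as the exception (0.21). Cry2, the second cryptochrome, stood at 8.41, 7.97 and 8.52 with eGFP, at 9.43, 8.15 and 8.40 with β4a, at 8.48, 8.30 and 8.02 with β4b, and at 8.80, 8.39 and 8.13 with β4e. Its variants were above eGFP in replicates 1 and 2 and below it in replicate 3, and β4a replicate 1 was again the highest of the 12 arrays.

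Dbp, Nr1d1 and Nr1d2, direct targets of CLOCK and BMAL1, did not pass for any variant either. Dbp stood at 11.87 with eGFP, 12.04 under β4a, 12.67 under β4b and 12.74 under β4e in replicate 1, at 9.69, 10.20, 10.53 and 10.18 in replicate 2, and at 11.70, 11.33, 11.33 and 11.23 in replicate 3. All variants were thus above eGFP in replicates 1 and 2 and below it in replicate 3, and the second probe set, 1418174_at, had the same signs. Nr1d2, which encodes REV-ERBβ, had the narrowest range of the 10 genes, from 12.87 to 13.37 in the 12 arrays. Nr1d1, which encodes REV-ERBα, lay between 3.60 and 4.42, near the test level in all arrays, so its differences are not exact.

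The variants were also compared with each other. For β4a against β4b, β4a against β4e and β4b against β4e, 0 of 19 clock probe sets passed with limma, with and without the replicate block, where the background was 0.0% in each. At an unadjusted limma p under 0.05 there were 0, 0 and 0 (0.243%, 0.664% and 0.759% of all probe sets), and with the block 0, 2 and 1 (2.69%, 6.33% and 7.11%).

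Between replicate numbers many clock probe sets passed, as did a large share of the array. The model held group and number, and each contrast below compares 4 arrays with 4, 1 of each group. The 3 contrasts share their arrays, and they compare these sets of arrays and not a labelled condition. In replicate 2 against replicate 1, 8 of 19 clock probe sets passed, 2 higher and 6 lower, where 53.2% of all probe sets passed (24.2% higher, 29.0% lower). In replicate 3 against replicate 1, 11 passed, 5 higher and 6 lower, against a background of 48.2% (19.8% higher, 28.5% lower). In replicate 3 against replicate 2, 8 passed, 6 higher and 2 lower, against 32.3% (15.7% higher, 16.7% lower). These counts lie near what the whole array showed, and 1 of the genes, Nr1d1, was above the test level only in replicate 1, so that it had to differ there.

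Dbp, the output factor, was among the clock genes with the widest split. Its arrays ran from 11.87 to 12.74 in replicate 1, from 9.69 to 10.53 in replicate 2 and from 11.23 to 11.70 in replicate 3, with no overlap between the numbers. Replicate 2 was 4.53-fold below replicate 1 (log2 difference -2.18, SE 0.21, limma adjusted p = 3.8e-05), and replicate 3 was 1.91-fold below replicate 1 (-0.93, adjusted p = 0.00539) and 2.38-fold above replicate 2 (1.25, adjusted p = 0.0022). The second probe set, 1418174_at, gave -2.37, -1.35 and 1.02, and passed in each, although its difference between replicates 3 and 2 did not pass without eGFP replicate 2 (0.88, adjusted p = 0.0739) or without β4e replicate 2 (0.92, adjusted p = 0.0681). The range of the 3 number means was wider for Dbp than for 96.7% of all tested probe sets.

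Per3 was low in replicate 2 alone. It ran from 5.32 to 5.66 there, from 7.03 to 7.74 in replicate 1 and from 7.67 to 8.01 in replicate 3, so that replicates 1 and 3 overlapped and replicate 2 stood apart. Replicate 2 was 3.77-fold below replicate 1 (-1.91, SE 0.15, limma adjusted p = 1.3e-05) and 5.24-fold below replicate 3 (difference of replicate 3 from replicate 2, 2.39, adjusted p = 1.8e-05). Replicate 3 was above replicate 1 by 0.47 (adjusted p = 0.0257), and this call did not hold when 1 of 5 arrays was left out: without eGFP replicate 1 (0.32, adjusted p = 0.0727), eGFP replicate 3 (0.38, 0.0883), β4a replicate 1 (0.45, 0.0641), β4a replicate 3 (0.49, 0.0545) or β4e replicate 3 (0.48, 0.0606). Replicate number accounted for 97.0% of the variation of Per3 over the 12 arrays and group for 0.437%, and for Dbp the shares were 90.0% and 3.08%. For the other tested Per3 probe sets the share of number was 87.6% (1441445_at), 69.1% (1458176_at), 66.3% (1442243_at) and 4.34% (1421086_at).

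**Figure D4:**
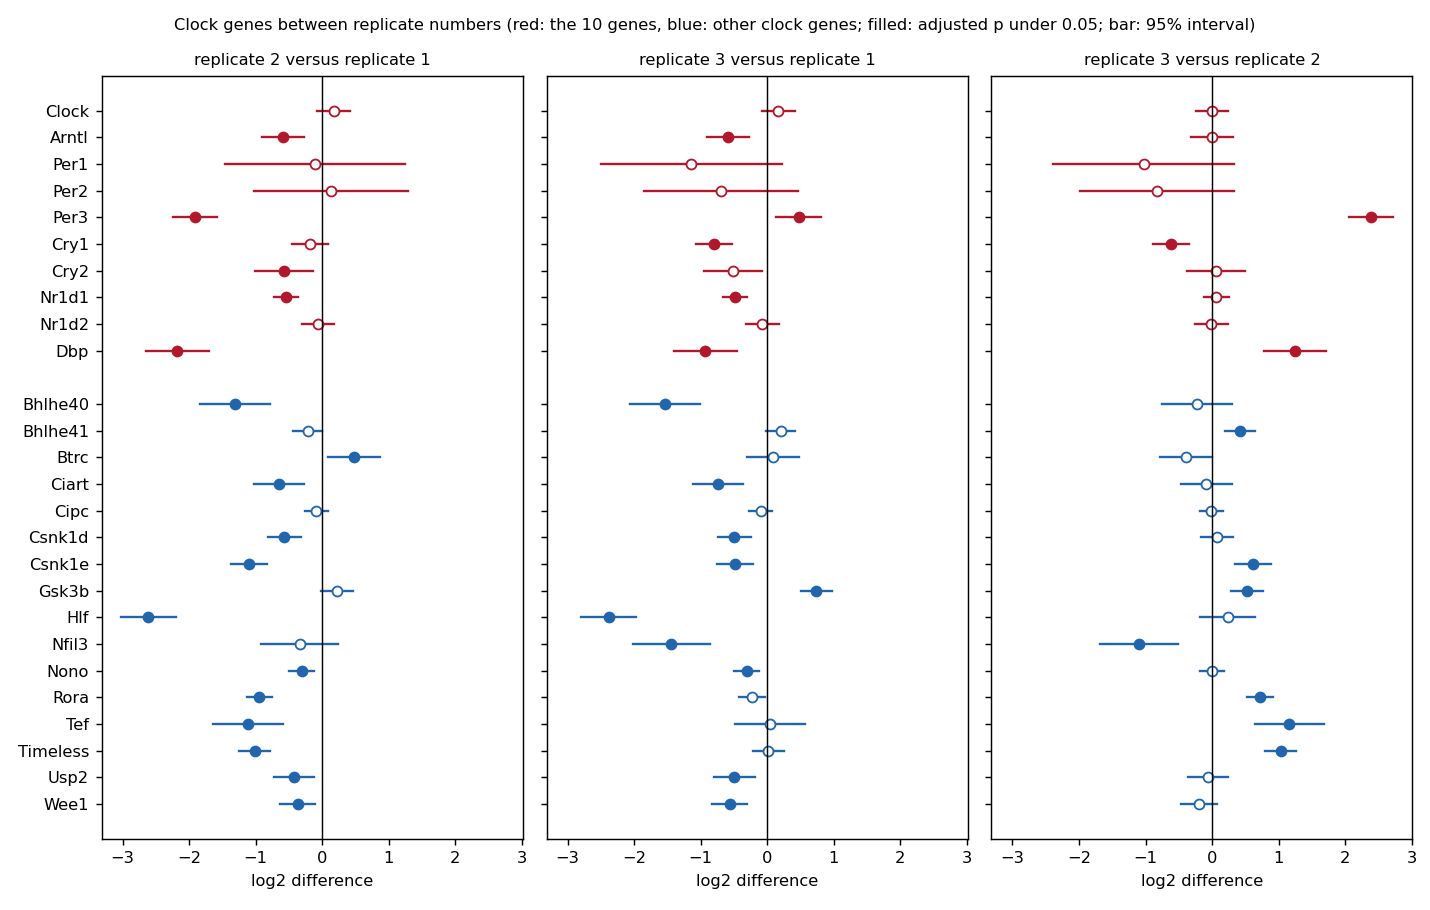
Log2 difference (horizontal axis) between replicate numbers for the 10 clock genes (red) and 16 other clock genes (blue), with 95% intervals from limma and filled points where the adjusted p is under 0.05. Each panel is 1 contrast of 4 arrays with 4. Dbp, Per3, Hlf, Bhlhe40, Rora, Timeless, Csnk1e and Tef lie furthest below 0 in replicate 2 against replicate 1. All of these but Dbp, Hlf and Bhlhe40 lie at or above -0.49 in replicate 3 against replicate 1. Bhlhe40 is at -1.30 in the first of these contrasts and at -1.53 in the second.

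The other clock genes split less. Arntl was lower in replicates 2 and 3 than in replicate 1, by -0.59 (limma adjusted p = 0.00593) and -0.59 (adjusted p = 0.00722), and replicates 2 and 3 differed by 0.01 (95% interval -0.31 to 0.32). Cry1 was lower in replicate 3, which ran from 9.24 to 9.74, than in replicate 1 (10.08 to 10.49) and replicate 2 (9.86 to 10.32), and replicate 3 did not overlap with either. Its log2 differences were -0.80 (adjusted p = 5.96e-04) and -0.62 (adjusted p = 0.00443). Cry2 was lower in replicate 2 than in replicate 1 by -0.58 (adjusted p = 0.0319), which did not pass without eGFP replicate 2 (-0.52, adjusted p = 0.0950), β4a replicate 1 (-0.37, 0.0922), β4a replicate 2 (-0.43, 0.113) or β4e replicate 1 (-0.58, 0.0713). Its difference between replicates 3 and 1, -0.51, had an adjusted p of 0.0546 and passed without eGFP replicate 1 (-0.64, 0.0356), eGFP replicate 3 (-0.70, 0.0150) or β4a replicate 2 (-0.51, 0.0453).

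Nr1d2 did not pass in any contrast, and its number means spanned 0.076, a wider span than that of only 2.9% of tested probe sets. Nr1d1 was lower by -0.55 and -0.48 in replicates 2 and 3 than in replicate 1, at levels near 4. Per1 and Per2 did not pass either, with 1 of their arrays far from the rest. Without β4a replicate 1, Per2 was 0.85 higher in replicate 2 than in replicate 1 (limma adjusted p = 0.0156) and -0.83 in replicate 3 against replicate 2 (0.0175), and Per1 was -1.03 in replicate 3 against replicate 2 (0.0236). Without eGFP replicate 1, Per1 was -1.69 in replicate 3 against replicate 1 (0.0400).

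Probe sets of the same gene disagreed for Clock and Per3. Clock 1439314_at ran from 5.94 to 7.37 in replicate 1, from 7.84 to 8.86 in replicate 2 and from 8.45 to 8.79 in replicate 3, which is 1.97 higher in replicate 2 than in replicate 1 (limma adjusted p = 6.3e-05) and 2.19 higher in replicate 3 (5.1e-05). The brightest, 1418660_at, differed by 0.17 in both contrasts and did not pass. Another, 1418659_at, was 0.50 higher in replicate 2 than in replicate 1 and -0.51 in replicate 3 against replicate 2, and passed in both, and the last, 1435775_at, was lower in replicate 3 than in replicate 1 by -0.27 (0.0325). That call was lost without eGFP replicate 1 or 3, β4a replicate 3, β4b replicate 1 or 3, or β4e replicate 3 (-0.30 to -0.24, adjusted p 0.0514 to 0.101). For Per3, 4 of 5 tested probe sets were higher in replicate 3 than in replicate 1 and than in replicate 2, by 0.47 to 1.08 and by 1.001 to 2.39, and 1421086_at, near the test level at 3.89 to 4.31, differed by -0.06 and -0.02. The low level in replicate 2 relative to replicate 1 passed for 1421087_at but not for 1441445_at (-0.33, 0.0510), 1458176_at (-0.48, 0.184) or 1442243_at (0.07, 0.742). Which transcripts each probe set detects was not tested.

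**Figure D5:**
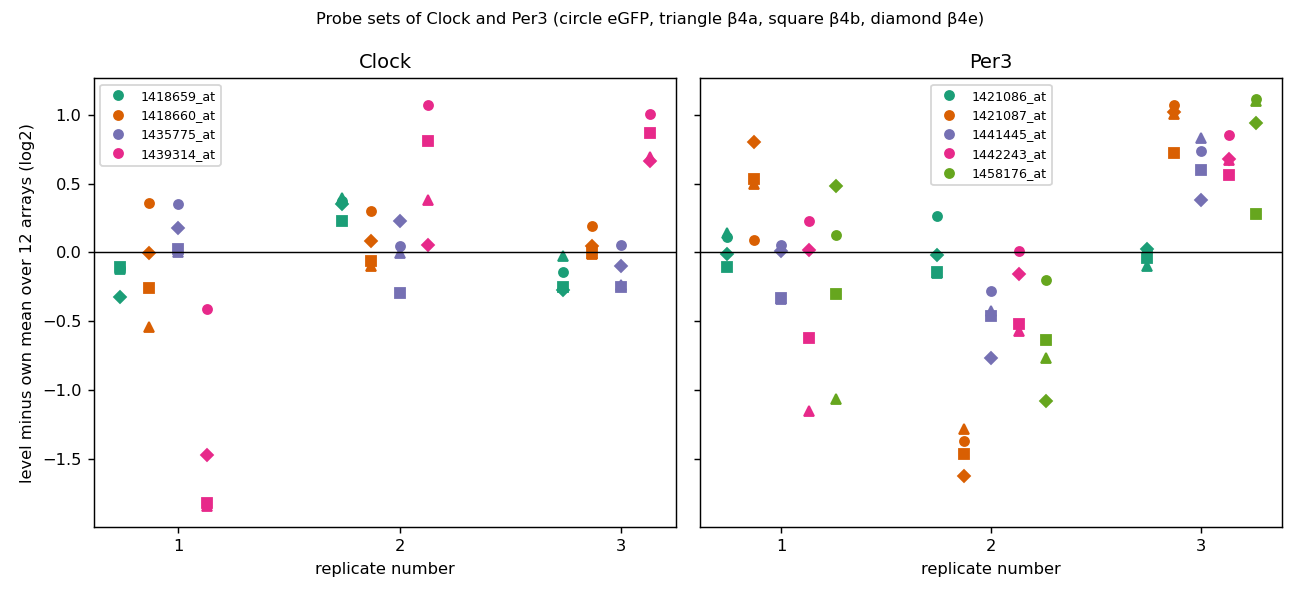
Level of each tested probe set of Clock (left) and Per3 (right) minus its own mean over the 12 arrays (log2, vertical axis) against the replicate number (horizontal axis). Colours are probe sets and shapes are groups (circle eGFP, triangle β4a, square β4b, diamond β4e). The replicate means of Clock 1439314_at span 2.19, with replicate 1 lowest, against 0.17 to 0.51 for the other Clock probe sets. The Per3 probe sets other than 1421086_at are high in replicate 3.

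Of a list of 22 further clock genes, 20 were on the array and 16 were tested. Npas2, Arntl2, Rorb and Fbxl21 were below 4 in all arrays. In no comparison of a variant with eGFP did any of the 16 pass with limma, with or without the block. There were 1, 0 and 0 at an unadjusted p under 0.05 for β4a, β4b and β4e, and 6, 2 and 1 with the block, beside the shares of all probe sets given above. The smallest p was that of Usp2, a deubiquitinase that acts on clock proteins. It was 0.67 higher with β4a (blocked SE 0.16, blocked limma adjusted p = 0.173) and above eGFP in 9 of 9 differences. With the block, Bhlhe40 was next (0.85 with β4a, limma adjusted p = 0.231). Without the block Cipc, a CLOCK-interacting repressor, was next, lower by -0.21 with β4b and below eGFP in 9 of 9. Hlf, singled out after its values were seen, was above eGFP in 9 of 9 as well, by 0.60 with β4a, 0.46 with β4b and 0.59 with β4e, at levels near 4 in replicates 2 and 3 (blocked limma adjusted p = 0.253 for β4a).

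Between replicate numbers many of these genes passed, most of them lower in replicates 2 and 3 than in replicate 1. In replicate 2 against replicate 1, 12 of 16 passed, 1 higher and 11 lower, where 53.2% of all probe sets passed, with a median log2 difference of -0.50 against -0.04 over all tested probe sets. In replicate 3 against replicate 1, 10 passed, 1 higher and 9 lower (background 48.2%, median -0.40 against -0.09), and in replicate 3 against replicate 2, 7 passed, 6 higher and 1 lower (32.3%, 0.04 against -0.01). Of the 10 genes first named, 5, 5 and 3 passed by their brightest probe set, beside the same backgrounds, and their medians were -0.36, -0.55 and 0.00.

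Hlf, which encodes a relative of DBP that binds the same D-box, stood at 5.54 to 6.90 in replicate 1, 3.39 to 4.07 in replicate 2 and 3.87 to 4.07 in replicate 3. Replicate 1 did not overlap with the others, and with 7 of 12 arrays above 4 the differences of -2.61 and -2.38 are against values near background. Rora, the receptor that activates Arntl, was lower in replicate 2 (10.14 to 10.32) than in replicate 1 (11.09 to 11.21), by -0.95 (limma adjusted p = 2.7e-05). Timeless stood at 4.47 to 4.71 in replicate 2, against 5.18 to 5.78 in replicate 1 and 5.42 to 5.77 in replicate 3. Csnk1e, a kinase that marks Period proteins for degradation, was lower in replicate 2 than in replicate 1 by -1.10 (adjusted p = 7.4e-05). Tef, the third factor of the DBP family and singled out after its values were seen, was low in replicate 2 as Dbp was, at 9.13 to 9.34 against 9.67 to 11.16 and 10.24 to 10.58.

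Markers of other cells moved with the replicate numbers too. Beside the counts below, 29.0% of all probe sets passed as lower and 24.2% as higher in replicate 2 against replicate 1. In replicate 3 against replicate 1 these shares were 28.5% and 19.8%. On the fibroblast and vascular list 5 markers were tested, Col1a1, Col1a2, Col3a1, Dcn and Lum, and no vessel marker. All 5 passed as lower in replicates 2 and 3 than in replicate 1. The summed level of the list was 8.87 to 9.95, 7.88 to 8.16 and 7.17 to 7.52 in replicates 1, 2 and 3. Of 9 oligodendrocyte markers, 6 passed as lower in replicate 2 and 7 in replicate 3 than in replicate 1 (medians -0.67 and -1.16), with summed levels of 14.83 to 14.89, 14.52 to 14.67 and 14.20 to 14.44. Of 5 microglial markers tested, 3 passed as higher in replicate 3 than in replicate 1 (median 0.90), with summed levels of 9.37 to 9.98, 9.56 to 10.26 and 10.26 to 10.66. Of 6 tested markers of other neurons, 4 passed as lower in replicate 2 and 4 in replicate 3 than in replicate 1 (medians -1.23 and -0.81), with summed levels of 13.71 to 13.94, 12.53 to 12.87 and 13.05 to 13.48. Of 10 astrocyte markers, 1 passed as higher and 1 as lower in each of these contrasts, with summed levels of 14.11 to 14.35, 13.65 to 14.34 and 13.68 to 15.10. Of 9 granule cell markers, 2 passed as higher and 2 as lower in replicate 2 than in replicate 1. In replicate 3 against replicate 1, 1 passed as higher and 2 as lower. The summed granule cell level was 16.47 to 16.57, 16.40 to 16.51 and 16.37 to 16.46. The 3′ minus 5′ difference of Gapdh was 0.09 to 0.40 in replicate 1, 0.05 to 0.12 in replicate 2 and -0.05 to 0.07 in replicate 3. The part of any of these in the differences of the clock genes was not tested.

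For the 7 clock genes whose level ranged over at least 1 log2 unit, the 3 other genes with the most similar pattern were found by the root mean square difference over the 12 arrays, after each probe set's mean was subtracted. For Per1 these were Trib1 (0.403), Per2 (0.407) and Tiparp (0.465), out of 7989 probe sets compared. For Per2 they were Fem1c (0.289), Tiparp (0.305) and Grasp (0.323), so that Tiparp was near both. Per3 was most like Wif1 (0.181), Pitpnc1 (0.284) and Fnbp1l (0.297), and Dbp most like Gng2 (0.238), Steap2 (0.249) and Prdm8 (0.250). Arntl was nearest to Marveld2 (0.175), Cry1 to Zbtb38 (0.141) and Cry2 to Armcx4 (0.147). Of the other clock genes, only Per2 came up in these lists.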

How the data were processed

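Gene expression was measured on 12 Affymetrix mouse 3′ arrays, 3 per group. The authors deposited log2 intensities, which they had computed with GCRMA, per the submitters' processing notes (version not given in the sources used here). GCRMA corrects background by probe sequence and normalizes between arrays, and values near 4 lie close to background. Values were used as deposited, on 1 table, and genes were named from the platform annotation. Symbols of probe sets can be old, and arrays give no depth: their number limits the precision.

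Probe sets above 4 in at least 3 of 12 arrays were tested (23044; 64 AFFX controls were left out). Groups were compared in R 4.3.3 by the linear models of limma 3.58.1 (moderated by eBayes, all 12 arrays in 1 fit, 8 residual degrees of freedom), two-sided, with Benjamini-Hochberg adjustment over all of them and a threshold of 0.05. Replicate numbers were compared in a model of group and number (6 residual degrees of freedom), which also served as the fit with the replicate block. All 18 pairs of arrays that share a number correlated in their deviations from the group means (r 0.699 to 0.884), and other pairs reached at most 0.146, so the numbers were taken to pair the arrays. The fits were tested on simulated data.

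The probe set with the highest mean stood for a gene. Of other lists, the genes with the smallest p were named. Alternatives were other filters, scalings, weights and probe set summaries and leaving out each array. The members, lists, rules and tests were chosen with earlier results of these data known.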

Additional observations from a re-analysis of the deposited data

Results flagged for a closer look

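In 5 clock genes every variant lay on one side of eGFP in 1 replicate number and on the other side in another, and these differences between numbers were not tested. In each number the 3 variants share 1 eGFP array, so that this array alone can set the sign. For Per2 the mean of the variants minus eGFP was 1.52 in replicate 1, -0.40 in replicate 2 and -0.49 in replicate 3, which are differences of 1.91 and 2.01 between replicate 1 and the others. Per3 stood at 0.52 in replicate 1 and -0.15 in replicate 3, a difference of 0.67. Cry2 was 0.50 and 0.32 above eGFP in replicates 1 and 2 and -0.34 in replicate 3, so that it differed by 0.83 and 0.65. Nr1d2 had 0.25, 0.06 and -0.24, with differences of 0.49 and 0.30, and Dbp had 0.61, 0.61 and -0.40, with differences of 1.01 for replicates 1 and 2 alike (1.014 and 1.015).

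In 57 sets of 4 arrays, 1 for each tested clock probe set and replicate number, 1 array stood apart by Dixon's test. Clock 1418659_at was 9.28 in β4e replicate 1, while the other 3 arrays of that number lay between 9.48 and 9.50. Chance alone flags about 1 in 20 such sets.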

How the results depend on the processing

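No clock probe set passed in any comparison of groups under any alternative run (other filters, median centring, quantile normalization, intensity trend, array weights, each array left out, the replicate block); with the block the count was 0 as well. In the blocked fit the lowest limma adjusted p was 0.182 for β4a, 0.125 for β4b and 0.878 for β4e, and with each array left out as well, an alternative chosen after seeing the data, it was 0.141, 0.0762 and 0.633. Between replicate numbers the counts ran from 7 to 10 (2 against 1), 9 to 12 (3 against 1) and 7 to 10 (3 against 2) on leaving out an array. With quantile normalization Cry2 did not pass in 2 against 1 (-0.51, adjusted p = 0.0506), and it passed in 3 against 1 with median centring (-0.56, 0.0395) and the intensity trend (0.0482). Clock passed in 2 against 1 (0.62, limma adjusted p = 4.5e-04) and in 3 against 1 (0.52, 0.00157) when its 4 probe sets were averaged. These 4 did not move alike. The means of replicates 1, 2 and 3 were 6.40, 8.36 and 8.59 for 1439314_at and 9.88, 10.05 and 10.05 for 1418660_at. They were 9.44, 9.94 and 9.43 for 1418659_at and 8.68, 8.53 and 8.40 for 1435775_at.

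Signs that turned belonged to differences that had not passed; the cause was not tested. With median centring these were Clock (-0.0196) and Arntl (-0.0139) in 3 against 2 and Per3 with β4b (0.0072). With array weights they were Per3 with β4a (-0.60) and β4e (-0.15), Cry2 with β4e (-0.0581), and Dbp with β4a (-0.37) and β4e (-0.11). With the mean of a gene's probe sets they were Clock in 3 against 2 (-0.10) and Per3 with β4a (-0.30) and β4e (-0.14). The group differences below come from fits without the replicate block, so a group that lost an array was compared over unequal replicate numbers. Of the variation of the brightest probe sets, 97.0% for Per3 and 90.0% for Dbp lay between numbers. Leaving out 1 array moved β4a against eGFP from -0.51 to 0.82 for Per3, -0.50 to 0.13 for Cry1, -0.0244 to 0.62 for Cry2, -0.17 to 0.12 for Nr1d1 and -0.59 to 0.60 for Dbp. It moved β4b from -0.51 to 0.27 for Per2, -0.65 to 0.70 for Per3, -0.20 to 0.0932 for Cry2, -0.13 to 0.24 for Nr1d1, -0.0772 to 0.0697 for Nr1d2 and -0.28 to 0.91 for Dbp. It moved β4e from -0.56 to 0.22 for Per2, -0.52 to 0.98 for Per3, -0.0338 to 0.30 for Cry2, -0.0049 to 0.34 for Nr1d1, -0.10 to 0.0434 for Nr1d2 and -0.40 to 0.90 for Dbp. In 2 against 1 it moved Per1 from -0.67 to 0.72, Per2 from -0.36 to 0.85 and Nr1d2 from -0.15 to 0.0188. In 3 against 1 it moved Per2 from -1.19 to 0.0279 and Nr1d2 from -0.17 to 0.0057. In 3 against 2 it moved Clock from -0.0738 to 0.0751, Arntl from -0.10 to 0.11, Cry2 from -0.12 to 0.19 and Nr1d2 from -0.11 to 0.0495.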
